A study of Mus musculus with 6 samples.

Results

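The genes described here are 8 apolipoproteins (Apoa1, Apoa2, Apoa4, Apoa5, Apob, Apoc1, Apoc2 and Apoc3) and 2 genes of lipoprotein assembly (Mttp and Tm6sf2). They were chosen by symbol, with no measured value in the rule, and are 10 of the 55416 genes of the count table. All 10 passed the filter on low counts. Hepatocytes package triglyceride and cholesteryl ester with apolipoprotein B into very low density lipoprotein (VLDL) in the endoplasmic reticulum. The transfer protein encoded by Mttp loads lipid onto apolipoprotein B as it is made, Tm6sf2 helps to fill the particle, and the smaller apolipoproteins either build high density lipoprotein (HDL) or adjust how plasma lipases and receptors handle the particles. Choline is needed to make phosphatidylcholine for the particle surface, which is why a choline-deficient diet is used to trap fat in mouse liver.

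RNA was sequenced from whole liver of male mice in 2 groups of 3 libraries. The group called WT carried floxed Ephb2 on both alleles (Ephb2flox/flox) and no Cre. The group called KO carried the same floxed alleles with PdgfrbCreERT2, a tamoxifen-inducible recombinase driven by the Pdgfrb promoter, which is active in hepatic stellate cells and other mesenchymal cells. Mice of both groups were 8 to 10 weeks old, received tamoxifen on 5 days and were then fed the choline-deficient, amino-acid-defined high-fat diet (CDAA; 45% of calories as fat, 0.1% methionine, 1% cholesterol) for 8 weeks. Without a group that carries Cre alone, effects of the recombinase and of the deletion cannot be told apart. The comparison of KO with WT asks how the liver transcriptome on this diet differs when Ephb2, a receptor tyrosine kinase for ephrin-B ligands, is deleted in those cells. In liver, hepatocytes are the main source of the RNA of these genes.

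Libraries held 21160690 to 26339251 counts, of which the 10 members took 2.22 to 2.62%. The targeted gene Ephb2 was at 9.46, 8.28 and 12.4 CPM (counts relative to library size, scaled by the trimmed mean of M-values) in WT replicates 1 to 3 and at 6.01, 8.87 and 6.95 CPM in KO replicates 1 to 3, which overlap. Its log2 fold change was -0.46 (95% interval -0.94 to 0.01), and it checks the labels only weakly. By design, liver cells without the active recombinase keep the gene, and the source of the remaining Ephb2 RNA was not tested. All 12 hepatocyte markers found in the table were at 1 CPM or more in every library, and their sum was 58702 to 62071 CPM in WT and 49455 to 63730 CPM in KO libraries. Alb, serum albumin, was lowest in KO replicate 2, at 32565 CPM against 38946 to 42996 CPM elsewhere. WT replicates 1 and 3 and KO replicate 2 stood apart from the other libraries in acute phase RNA, with a mean over 19 genes of 9.54, 9.80 and 10.2 log2 CPM against 8.20 to 8.24. Nothing in the labels ties the replicates to separate animals, and each p-value then reflects only how these samples vary, which may be technical.

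No member passed edgeR's quasi-likelihood test between the genotypes (0 of 10 at an adjusted p under 0.05), and 0% of the 17083 genes tested did. Limma-voom and DESeq2 called 0 members too, where they called 0% and 0.0236% of all genes they tested. At an unadjusted p under 0.05 edgeR had 1 member, Apoa4, which lay lower in KO liver, where 2.1% of all genes tested lay lower and 3.08% higher at that level. Apoa4 was no longer under it without WT replicate 3, without any one of the KO libraries, or with the replicate number as a block. With that block Apoa5 was the one such member. Apoa4 stayed under it in the other alternatives. Tm6sf2 was also under it without a count filter (1390 of 29609 genes were) and with DESeq2 (837 of 29606). The same held with the acute phase covariate (1040 of 17083), without WT replicate 2 (1858 of 17411) and without KO replicate 2 (899 of 17357). Apoa5 was under it without KO replicate 1 (892 of 17440). Members whose CPM separated the genotypes without overlap numbered 1 of 10, again Apoa4, where 11.1% of all genes tested did so (4.9% lower and 6.21% higher in KO liver). A count of 1 in 10 is near that background. Log2 fold changes were below 0 for 9 of 10 members, with a median of -0.15, beside 51% of all genes and a median of -0.0048. Of the 12 hepatocyte markers, 10 had a negative and 2 a positive value, with a median of -0.06. The background over all genes moves with the scaling. With library size only, 7 of 10 members and 32.9% of all genes were negative, and the medians were -0.07 and 0.07.

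**Figure D1:**
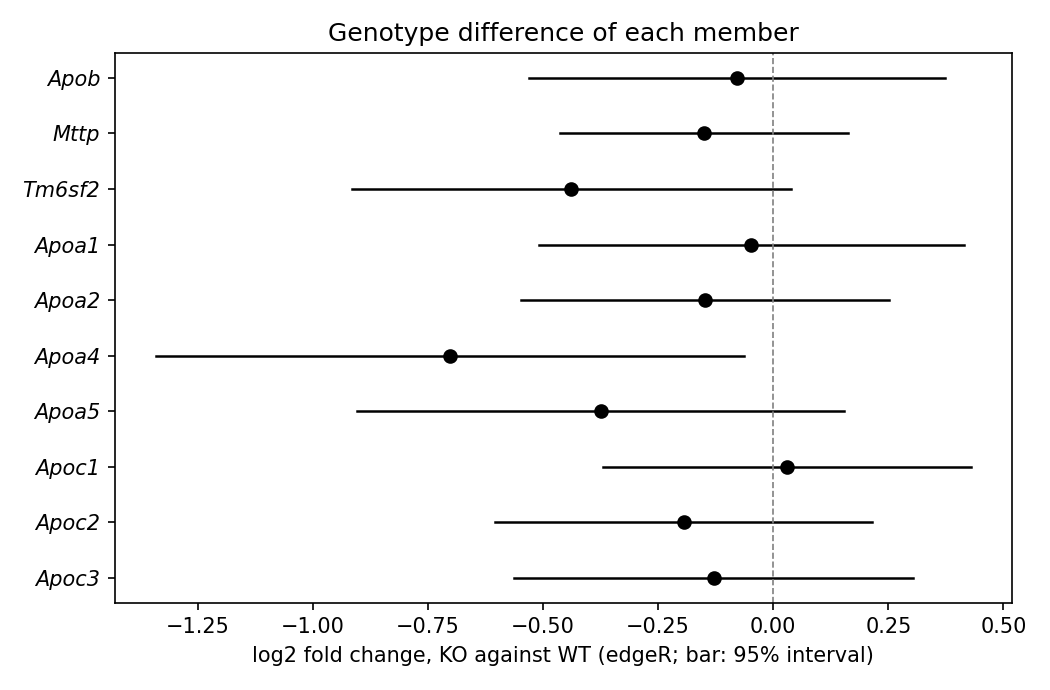
Log2 fold change of KO against WT for each of the 10 members (horizontal axis; point, edgeR estimate; bar, 95% interval; n = 3 libraries per genotype). The interval of Apoa4 lies below 0 (-1.34 to -0.06) and the intervals of the other 9 members include 0; no member passed after adjustment over all genes.

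The sequences before 3 start sites are shown first, since they belong to the member with the widest difference (Apoa4), its neighbour Apoa5, and Apob, the structural protein of the particle. Of the 10 members, 7 had a promoter entry in the RefSeq table of GRCm38.p6, and the bases printed end before the first exon base of the gene in GENCODE M21. Capitals mark matches to 4 motifs searched on both strands of the 250 bases before each start. These were CAAAGNNCA, the TATA box TATAAA, the sterol response element TCACNCCAC and the E-box CACGTG. CAAAGNNCA is part, not the whole, of a direct repeat of the kind bound by HNF4A and other nuclear receptors. No matches of different motifs overlapped in the printed stretches.
Apoa4 (chr9:46240594-46240695, plus strand, GRCm38.p6): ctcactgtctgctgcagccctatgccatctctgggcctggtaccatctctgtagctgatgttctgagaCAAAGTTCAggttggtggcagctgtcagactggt
Apoa5 (chr9:46268433-46268632, plus strand, GRCm38.p6): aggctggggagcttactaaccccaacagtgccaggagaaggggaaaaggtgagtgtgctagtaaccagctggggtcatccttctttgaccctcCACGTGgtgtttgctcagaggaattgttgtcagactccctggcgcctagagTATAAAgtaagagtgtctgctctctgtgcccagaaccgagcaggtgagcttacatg
Apob (chr12:7977448-7977647, plus strand, GRCm38.p6): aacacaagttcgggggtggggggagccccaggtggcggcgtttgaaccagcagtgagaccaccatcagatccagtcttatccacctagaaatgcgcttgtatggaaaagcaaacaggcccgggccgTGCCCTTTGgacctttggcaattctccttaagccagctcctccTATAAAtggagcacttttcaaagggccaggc

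Both Apoa4 and Apob held a CAAAGNNCA match, that of Apob on the opposite strand, and 5.49% of all 32851 promoters in the table did. Apoa5, Apob and Apoa2 (not printed here) held TATAAA, found in 12.4% of all promoters. Apoa5 also held CACGTG, found in 6.02%. None of the members with an entry held TCACNCCAC, which 1.05% of promoters held. A match is a string of letters and was not tested as a binding site.

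Levels per kilobase of exon spanned a wide range. Apoa2 was highest, at 3447 ± 566 CPM per kilobase in WT and 3111 ± 380 in KO liver (SD, n = 3 each). Apoa1 followed at 2857 ± 531 and 2764 ± 425 CPM per kilobase, and the ranges of the 6 libraries of these neighbours overlap. Apoc1 (954 to 1362 CPM per kilobase over the libraries) and Apob (1042 to 1260) could not be separated either. Apoa4 ran from 441 to 1210 and Apoc3 from 374 to 608 CPM per kilobase. Apoa5, at 156 to 325, lay below every library of Apoc3. The assembly genes were lower than these, with Mttp at 30.8 to 45.2 and Tm6sf2 at 7.83 to 16.1 CPM per kilobase. The row of Apoc2 was lowest, at 3.68 to 5.01 CPM per kilobase, and is described with its overlapping gene.

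**Figure D2:**
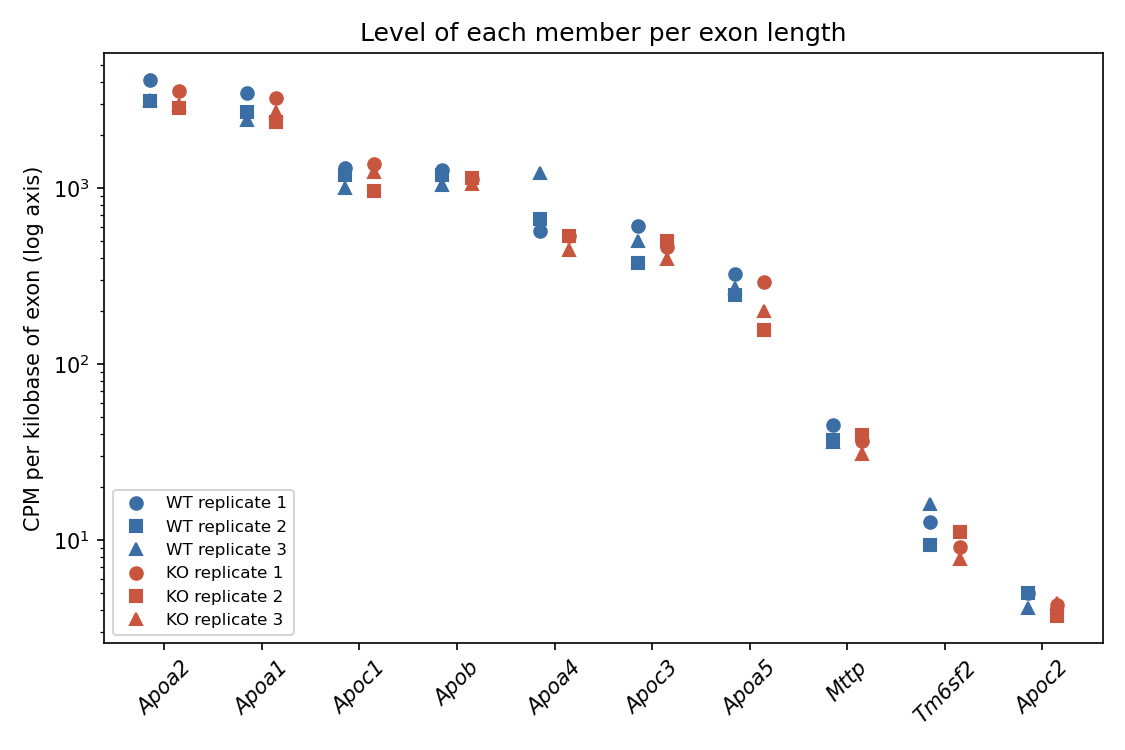
Level of each member in CPM per kilobase of exon (vertical log axis) in the 6 libraries; colour gives the genotype and the marker shape the replicate number. Apoa2 and Apoa1 lie highest and Mttp and Tm6sf2 below all apolipoproteins other than Apoc2, whose row is lowest at 3.68 to 5.01.

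Apob encodes the single large protein around which VLDL is built and lies on chromosome 12 (7977648 to 8016835, plus strand, GRCm38). It was at 17554, 16461 and 14519 CPM over the WT libraries, against 15621, 15759 and 14579 CPM over the KO libraries. These ranges overlap, and the lowest library was WT replicate 3. Apob alone took 1.37 to 1.70% of a library's counts. Its log2 fold change was -0.08 (95% interval -0.53 to 0.37; edgeR adjusted p = 0.939). Within a genotype it was the steadiest member in KO liver, with a coefficient of variation of 4.21%, and the steadiest in WT liver too, at 9.50%.

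Mttp encodes the large subunit of the microsomal triglyceride transfer protein and lies on chromosome 3 (138089854 to 138144968, minus strand). Its levels were 280, 229 and 224 CPM in the WT livers, and 226, 243 and 191 CPM in the KO livers. The highest library was a WT one and the lowest a KO one, and the others overlapped. The log2 fold change was -0.15 (95% interval -0.46 to 0.16), and no other member had a narrower interval. P4hb, protein disulfide isomerase, is the other subunit of the transfer protein and was picked out after its values were seen. It was at 1747, 1589 and 1720 CPM across WT replicates 1 to 3, beside 1535, 1511 and 1445 CPM across KO replicates 1 to 3, with no overlap and a log2 fold change of -0.17 (edgeR adjusted p = 0.852).

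Tm6sf2, a membrane protein of the endoplasmic reticulum that supports lipid loading of VLDL, lies on chromosome 8 (70072924 to 70080066, plus strand). It was at 24.1, 17.9 and 30.5 CPM over the WT libraries, against 17.3, 21.1 and 14.9 CPM over the KO libraries. WT replicate 3 was highest, and WT replicate 2 lay among the KO libraries. The log2 fold change was -0.44 (95% interval -0.91 to 0.04; edgeR adjusted p = 0.850). Without WT replicate 3 it was -0.23, and without WT replicate 2 it was -0.62.

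**Figure D3:**
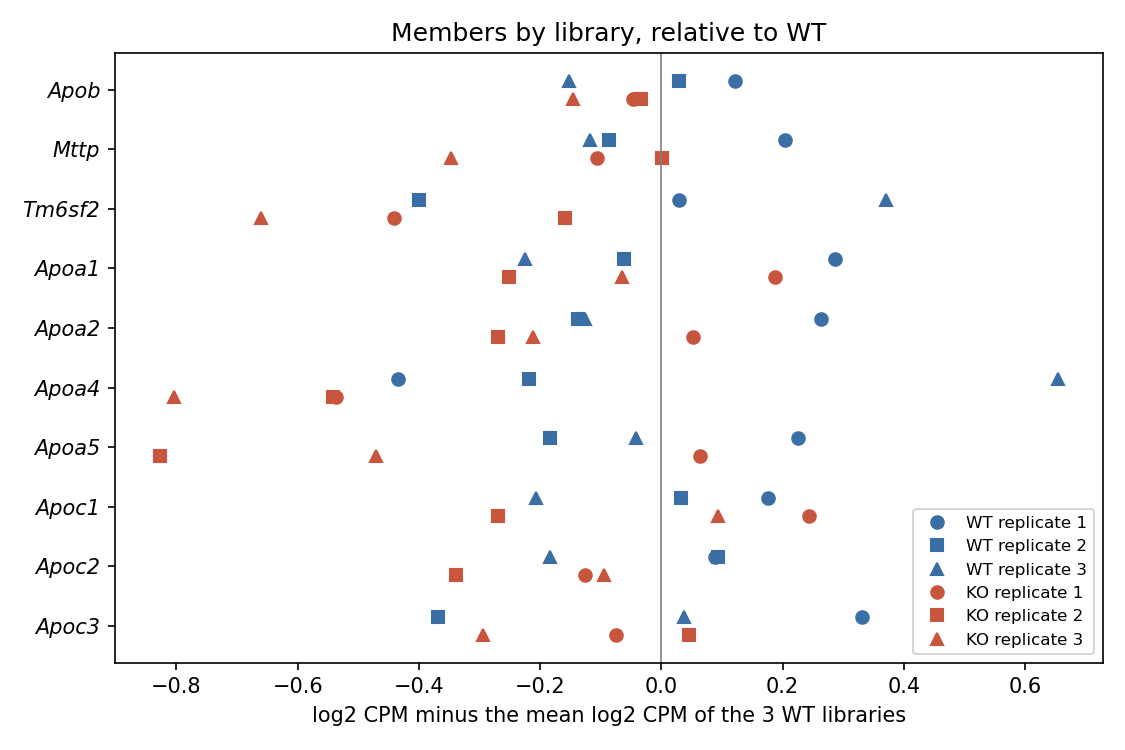
Log2 CPM of each member in each library minus the mean of the 3 WT libraries (horizontal axis); colour gives the genotype and marker shape the replicate. Apoa4 is the one row in which all KO points lie left of all WT points, and WT replicate 3 lies far to the right there and in the row of Tm6sf2.

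Apoa4 encodes a lipid-binding apolipoprotein of large VLDL, chylomicrons and HDL. The gene lies on chromosome 9 (46240696 to 46243459, plus strand). Its levels were 1033, 1200 and 2197 CPM across the WT replicates, while the KO replicates stood at 963, 959 and 800 CPM. The KO libraries were close together and all lay below the WT libraries, of which replicate 3 stood far above the others. WT liver averaged 1477 ± 629 CPM and KO liver 907 ± 93.1 CPM (SD, n = 3 each). This is a log2 fold change of -0.70 (SE 0.28, 95% interval -1.34 to -0.06; edgeR adjusted p = 0.850). Without WT replicate 3 the log2 fold change was -0.30, and leaving out each library in turn gave -0.91 to -0.30 (edgeR adjusted p from 0.428 to 0.9998). By library size only the genotypes overlapped, with a log2 fold change of -0.62.

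WT replicate 3, the library with the most Apoa4, also held the most marker RNA of several other cell types. Summed over all 10 Kupffer cell markers it held 1811 CPM, against 796 and 1060 CPM in the other WT and 740 to 1048 CPM over the KO libraries. Clec4f, a lectin of Kupffer cells, was at 102, 60.7 and 144 CPM in the WT livers, and 67.6, 58.5 and 24.1 CPM in the KO livers. Over the 8 sinusoidal endothelial markers the sums were 732 to 1131 CPM in WT and 630 to 826 CPM in KO, and over the 9 neutrophil markers 30.7 to 179 CPM and 38.5 to 113 CPM, with WT replicate 3 highest in both. Of the Kupffer, endothelial and neutrophil markers none was at 0 in all libraries, and their part in the Apoa4 difference was not tested. In whole tissue, fewer cells of a type and less RNA per cell cannot be told apart.

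Enterocytes of the small intestine also make Apoa4, Apob and Mttp in quantity. Of 12 enterocyte markers, Sis, Alpi, Cdx1 and Cdx2 were at 0 counts in every library and 3 were at 1 CPM or more in all. Summed, the list held 57.3 to 75.6 CPM in WT and 58.2 to 73.3 CPM in KO libraries. Fabp2, an intestinal fatty acid binding protein, was at 41.2, 47.8 and 34.6 CPM across WT replicates 1 to 3, beside 42.8, 31.2 and 43.5 CPM across KO replicates 1 to 3. Vil1, the microvillus protein villin, was at 2.72, 3.74 and 2.82 CPM over the WT libraries, against 5.53, 5.01 and 5.08 CPM over the KO libraries. Vil1 also marks bile duct epithelium, and the bile duct keratin Krt19 lay at 13.0, 17.6 and 15.6 CPM in the WT livers, and 18.9, 19.1 and 22.1 CPM in the KO livers. The 8 bile duct markers summed to 269 to 389 CPM in WT and 403 to 518 CPM in KO libraries, without overlap. The sums overlapped for 10 stellate cell markers (1832 to 2775 CPM in WT, 1995 to 2585 in KO) and for 10 markers of lipid-associated macrophages (2192 to 2525 and 2227 to 2905). Lrat, which esterifies retinol in stellate cells, was at 52.6, 43.5 and 64.7 CPM across WT replicates 1 to 3, beside 36.4, 47.2 and 36.5 CPM across KO replicates 1 to 3. Whether any of these markers bears on the members was not tested.

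Annotated genes on the opposite strand cover 69.8% of the exonic bases of Apoa4. They were the antisense transcript Gm10680, with 5, 16 and 27 counts in WT and 9, 13 and 9 counts in KO libraries, and Gm47528, with 0 to 2 counts. Apoa4 itself had 17943 to 45934 counts. The libraries were directional, but the strand setting of the counting is not given in the sources used here. Opposite-strand genes also shared 20.8% of the exonic bases of Apoa5 and 9.49% of those of Mttp.

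Apoa4 belongs to a cluster with Apoa1, Apoc3 and Apoa5 within 43.3 kb of chromosome 9, and its neighbours did not share its separation between the genotypes. Apoa5, a low-abundance plasma protein that promotes triglyceride clearance by lipoprotein lipase, lies at 46268633 to 46271919 on the plus strand. It was at 818, 616 and 680 CPM over the WT libraries, against 731, 394 and 505 CPM over the KO libraries. KO replicate 1 lay among the WT libraries and the other 2 KO libraries below all of them. This gave a log2 fold change of -0.37 (95% interval -0.90 to 0.15; edgeR adjusted p = 0.850). It was -0.65 without KO replicate 1 and -0.19 without KO replicate 2, the library with the most acute phase RNA. Saa1, serum amyloid A, was at 1857 CPM in KO replicate 2, at 57.3 and 80.4 CPM in the other KO libraries and at 423, 51.6 and 595 CPM in WT libraries, and Orm2, orosomucoid, at 1083 CPM there. The summed acute phase list of 19 genes ran from 18970 to 45346 CPM in WT and from 19332 to 47916 CPM in KO libraries. With the mean acute phase level as a covariate, the log2 fold change of Apoa5 was -0.45 (edgeR adjusted p = 0.799). The part of acute phase RNA in the low Apoa5 value of KO replicate 2 was not tested.

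Apoa1 encodes the main structural protein of HDL and lies at 46228580 to 46230466 on the plus strand. Across the WT replicates it was at 4260, 3345 and 2988 CPM, while the KO replicates stood at 3976, 2935 and 3338 CPM. Replicate 1 was the highest library of each genotype, and the genotypes overlapped throughout. KO differed from WT by a log2 fold change of -0.05 (95% interval -0.51 to 0.41; edgeR adjusted p = 0.968), and it was 0.04 with library size only. Apoc3, an inhibitor of lipoprotein lipase and of remnant uptake, is read from the minus strand between them (46232933 to 46235636). It was at 616, 380 and 503 CPM in the WT livers, and 465, 506 and 399 CPM in the KO livers, so that the highest and the lowest library were both WT. Its log2 fold change was -0.13 (95% interval -0.56 to 0.30), and 0.04 without WT replicate 1.

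Apoa2, the second most abundant protein of HDL, lies on chromosome 1 (171225054 to 171226379, plus strand). It was at 2202, 1669 and 1683 CPM across WT replicates 1 to 3, beside 1904, 1523 and 1585 CPM across KO replicates 1 to 3. KO replicate 1 lay above 2 of the WT libraries. The log2 fold change was -0.15 (95% interval -0.55 to 0.25; edgeR adjusted p = 0.880). Without WT replicate 1 it was -0.01.

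Apoc1, a small exchangeable apolipoprotein that hinders particle uptake, lies on chromosome 7 (19689481 to 19692660, minus strand). It was the one member with a positive log2 fold change, 0.03 (95% interval -0.37 to 0.43; edgeR adjusted p = 0.977), and this sign turned to -0.03 with the acute phase covariate, -0.07 without WT replicate 3 and -0.09 without KO replicate 1. Levels were 966, 875 and 741 CPM over the WT libraries, against 1013, 709 and 913 CPM over the KO libraries. The highest and the lowest library were both KO.

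Apoc2 encodes the activator of lipoprotein lipase and lies on chromosome 7 (19671579 to 19677941, minus strand). Its row held 82, 97 and 70 counts in WT and 80, 79 and 80 counts in KO libraries, or 4.06, 4.07 and 3.35 CPM and 3.49, 3.0 and 3.57 CPM. This gave a log2 fold change of -0.19 (95% interval -0.60 to 0.21; edgeR adjusted p = 0.859). Upstream of it on the same chromosome, Apoc4 and Apoc1 stood at 236 to 352 CPM and 709 to 1013 CPM. In GENCODE M21 the protein-coding gene Gm44805 runs through both Apoc4 and Apoc2 on the same strand, and its exons contain 646 of the 813 exonic bases of Apoc2 (79.5%), beside 4.69% of those of Apoc4. Gm44805 itself held 51, 48 and 28 counts in WT and 65, 57 and 39 counts in KO libraries.

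The coding sequence of Apoc2 (291 bases without the stop codon, on the minus strand between 19671764 and 19673601 of chromosome 7) is printed because each of its bases also belongs to an exon of Gm44805. Capitals mark the shared bases, which are all 291.
Apoc2: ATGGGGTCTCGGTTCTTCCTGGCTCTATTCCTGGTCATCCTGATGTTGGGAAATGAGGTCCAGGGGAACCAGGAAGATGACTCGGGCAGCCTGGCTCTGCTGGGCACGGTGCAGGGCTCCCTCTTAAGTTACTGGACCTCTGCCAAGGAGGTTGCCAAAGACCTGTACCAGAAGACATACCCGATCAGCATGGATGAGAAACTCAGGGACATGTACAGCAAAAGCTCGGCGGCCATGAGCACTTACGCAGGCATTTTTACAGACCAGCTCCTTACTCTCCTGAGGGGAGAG
How the counting treated reads that fall on both genes is not given in the sources used here. The row of Apoc2 is therefore a count under that unknown rule and cannot be read as the level of Apoc2 RNA in these livers. Without Apoc2 the median log2 fold change of the members was -0.15, as with it.

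**Figure D4:**
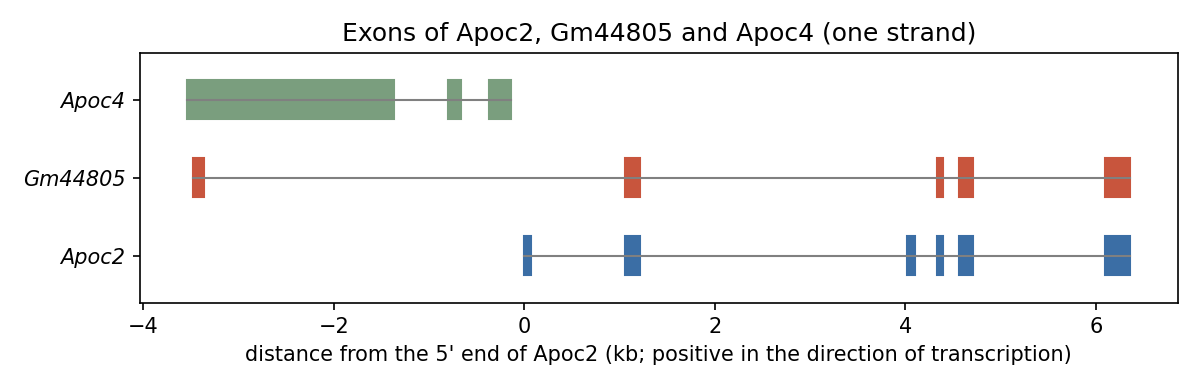
Exons (boxes) of Apoc4, Gm44805 and Apoc2, all on the minus strand, against the distance from the 5′ end of Apoc2 in kb (horizontal axis, positive in the direction of transcription). The exons of Gm44805 start within the span of Apoc4 and coincide with 646 of the 813 exonic bases of Apoc2, leaving the first exon of Apoc2, a further small exon and a few bases as its own.

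Over the 6 libraries the members did not follow one pattern. Of the 45 pairs, the highest Pearson correlations of log2 CPM were those of Apoa1 with Apoa2 (0.91) and with Apoc1 (0.90), of Apoa2 with Apoa5 (0.86), of Apob with Mttp (0.84) and of Apoa4 with Tm6sf2 (0.82). The lowest were those of Tm6sf2 and Apoa4 with Apoc1, -0.51 and -0.49. These values rest on 6 libraries that share their scaling and are given as a description. The mean standardised level of the members was highest in WT replicate 1 (1.11) and lowest in KO replicates 2 and 3 (-0.60 and -0.69), with the other 3 libraries between -0.02 and 0.18. Among 9320 genes with a mean of at least 10 CPM outside the lists, those closest to that mean pattern were Nsd3, a histone methyltransferase (r = 0.998), Ndst1, a heparan sulfate sulfotransferase (0.995), Mst1, the liver-secreted macrophage stimulating protein (0.991), Dnajc11 (0.991) and Bloc1s1 (0.988), where n = 6 libraries. With so many genes and 6 libraries, a high r is easily reached.

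The other genes of the pathway were listed by role, 98 genes in 7 lists of which 97 passed the filter. None passed edgeR's test (0 of 97 at an adjusted p under 0.05, where 0% of all genes did), and 5 stood at an unadjusted p under 0.05, 3 higher and 2 lower in KO liver, where 5.19% of all genes did (3.08% higher, 2.1% lower). DESeq2 called Angptl4 and Srebf1, 2 of the 7 genes it called among 29606 tested. Log2 fold changes were negative for 69 of the 97, with a median of -0.09, again beside 51% and -0.0048 for all genes tested. With library size only, 32.9% of all genes were negative and their median was 0.07. The lists were not counted under that scaling, and small negative values in them may turn positive with it.

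Of the other apolipoproteins, 7 of 8 passed the filter and all 7 had a negative log2 fold change, from -0.31 to -0.03, with a median of -0.09. Apom, the apolipoprotein that carries sphingosine 1-phosphate on HDL, was at 123, 78.3 and 121 CPM in the WT livers, and 84.9, 93.7 and 82.1 CPM in the KO livers, which overlap. Apoc4 was at 336, 321 and 288 CPM across WT replicates 1 to 3, beside 352, 236 and 266 CPM across KO replicates 1 to 3, which overlap as well. Neither passed edgeR's test (log2 fold changes -0.31 and -0.15; adjusted p = 0.850 and 0.876).

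Among 19 genes that load lipid into the particle, 14 were negative with a median of -0.13. The smallest p values were those of the acyltransferases that make triglyceride. Dgat1 was at 21.4, 21 and 19.0 CPM over the WT libraries, against 18.4, 16.8 and 16.8 CPM over the KO libraries, which did not overlap, with a log2 fold change of -0.24 (SE 0.10; edgeR adjusted p = 0.850). Dgat2 was at 311, 274 and 363 CPM in the WT livers, and 272, 280 and 244 CPM in the KO livers, with a log2 fold change of -0.25 (SE 0.13) and overlap. In this list 2 of 19 genes lay lower without overlap, 10.5%, where 4.9% of all genes tested did.

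Export of the particle from the endoplasmic reticulum uses COPII coat proteins and cargo receptors. In this list of 20 genes 17 were negative, with a median of -0.07 and a narrow range apart from Sort1. Sort1, sortilin, which binds apolipoprotein B in the Golgi, was at 54.7, 69.3 and 54.8 CPM across WT replicates 1 to 3, beside 76.6, 72.7 and 82.1 CPM across KO replicates 1 to 3. All KO libraries lay above all WT libraries, with a log2 fold change of 0.37 (SE 0.11; edgeR adjusted p = 0.850), so its direction was opposite to that of most of the list. Sec23a, a COPII coat subunit, was at 124, 146 and 148 CPM over the WT libraries, against 127, 127 and 122 CPM over the KO libraries, with a log2 fold change of -0.15 (SE 0.10).

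Mouse liver edits the Apob transcript to make the short form of apolipoprotein B, and 5 genes of that machinery were listed. Their log2 fold changes had a median of -0.10, with 3 of 5 negative. Rbm47, an RNA-binding cofactor, was at 136, 125 and 118 CPM in the WT livers, and 113, 105 and 120 CPM in the KO livers. Celf2 lay at 46.8, 48.8 and 50.9 CPM across WT replicates 1 to 3, beside 50.1, 54.8 and 53.0 CPM across KO replicates 1 to 3. The genotypes overlapped in both, and gene counts do not show the edited share of Apob.

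In plasma, lipases and their inhibitors act on the exported particles. They were listed with genes of HDL remodelling and transport, namely Lcat, Pltp, Abca1, Abcg1, Abcg5 and Abcg8. The 14 genes were split evenly, 7 positive and 7 negative, with a median of -0.03. Their range was the widest of all the lists, from -1.16 (Angptl4) to 0.75 (Abcg5). Angptl4, a secreted inhibitor of lipoprotein lipase, was at 131, 110 and 166 CPM over the WT libraries, against 76.2, 49.5 and 56.8 CPM over the KO libraries, with no overlap and a log2 fold change of -1.16 (SE 0.20; edgeR adjusted p = 0.850, DESeq2 adjusted p = 0.000739). Angptl8, which acts on the lipase after feeding, stood at 9.76, 8.65 and 4.73 CPM in the WT livers, and 12.7, 17.4 and 8.60 CPM in the KO livers, with a log2 fold change of 0.74 (SE 0.32; edgeR adjusted p = 0.850). Its lowest KO library, replicate 3, lay below WT replicates 1 and 2. The 12 receptor genes had 7 negative values and a median of -0.05, within -0.19 to 0.13. Scarb1, the HDL receptor, was at 253, 210 and 183 CPM across WT replicates 1 to 3, beside 198, 185 and 197 CPM across KO replicates 1 to 3, and Lsr, a receptor for remnant particles, at 264, 223 and 335 CPM and 227, 288 and 205 CPM.

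The list of 20 transcription regulators had 14 negative values and the lowest median, -0.20. Hnf4a, the nuclear receptor that drives most apolipoprotein genes, was at 708, 575 and 863 CPM over the WT libraries, against 628, 534 and 535 CPM over the KO libraries. WT replicate 3 was its highest library, and KO replicate 1 lay above WT replicate 2. KO differed from WT by a log2 fold change of -0.34 (SE 0.17; edgeR adjusted p = 0.850). Creb3l3, a membrane-bound factor known to activate Apoa4 and picked out after its values were seen, was at 231, 191 and 178 CPM in the WT livers, and 190, 158 and 151 CPM in the KO livers, a log2 fold change of -0.27 (edgeR adjusted p = 0.850). The genotypes overlapped for Creb3l3, and WT replicate 3 was its lowest WT library. The part of Hnf4a or Creb3l3 in the Apoa4 difference was not tested. Srebf1, the driver of fatty acid synthesis, lay the other way, at 182, 203 and 141 CPM across WT replicates 1 to 3, beside 327, 317 and 276 CPM across KO replicates 1 to 3 (log2 fold change 0.81, SE 0.15; edgeR adjusted p = 0.850, DESeq2 adjusted p = 0.00467).

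**Figure D5:**
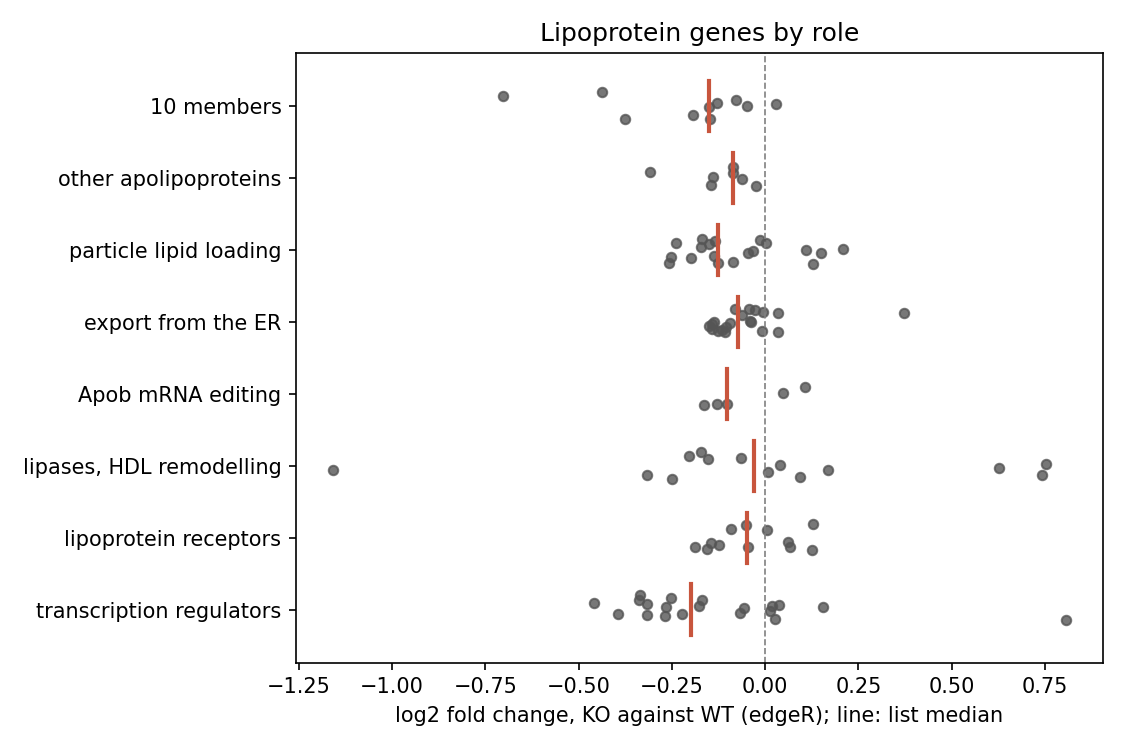
Log2 fold change of KO against WT (horizontal axis) for each gene past the filter, by role in the lipoprotein pathway; points are genes, with vertical scatter for display alone, and the red line is the median of a list. The medians run from -0.20 for transcription regulators to -0.03 for lipases and HDL remodelling, whose points also spread widest, from -1.16 to 0.75.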

How the data were processed

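The deposited table holds the authors' raw counts by Ensembl gene ID, 1 column per sample, from polyadenylated RNA of whole liver in 6 samples, sequenced with a directional kit, per the labels' protocols. Per the submitters' processing notes, which give no roles, the tools were featureCounts 1.6.3, STAR 2.7.6a and DESeq2 1.30.0 and the genome GRCm38 (mm10). The sources used here do not give the annotation release, the strand setting or how reads on overlapping genes were treated. Symbols, positions and exon lengths were taken from GENCODE M21 (GRCm38), where 94.1% of the gene IDs were found, and symbols of all 10 members matched.

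The main test was edgeR 4.0.16 (glmQLFit, glmQLFTest; R 4.3.3) on genotype alone, with TMM scaling. Genes were kept by filterByExpr at a minimum count of 10 and a total of 15, which left 17083, and p-values were adjusted over all of them by Benjamini-Hochberg, with a threshold of 0.05. Intervals are 95% intervals from the same fit. Logged levels used a prior count of 2. Total counts were 21160690 to 26339251 per library, and log2 fold changes had a median SE of 0.159. Alternatives were other scalings and filters, DESeq2 1.42.0, limma-voom (limma 3.58.1), a robust fit, the replicate number as block, an acute phase covariate and leaving out each library. Leaving Apoc2 out was added after seeing the data. Every pair of libraries differed by more than sampling noise (chi-square per degree of freedom 10.4 to 69.6).

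The members and lists were chosen with earlier results of these data known. Named were all members, Ephb2, the 2 genes of smallest p from each of 7 pathway lists, 8 marker genes and the 5 genes outside the lists most like the members' mean pattern. P4hb and Creb3l3 were named after their values were seen. The hepatocyte list had 13 symbols, of which 12 matched.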

Additional observations from a re-analysis of the deposited data

How the results depend on the processing

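No member passed under any of the 17 alternatives, and the members' median log2 fold change stayed negative in all, from -0.21 (without WT replicate 3) to -0.04 (without WT replicate 1). The count of members without overlap was 0 with library size only (11.4% of all genes tested) and 1 to 3 with a library left out, where 16.8 to 29.6% of all genes did not overlap; fewer libraries overlap less by construction. Other pathway genes passed in 2 settings, 1 without a count filter (Angptl4) where 3 of 29609 genes did, and 2 with DESeq2 (Angptl4 and Srebf1), where 7 of 29606 did. Those settings were not run with a library left out. Libraries were left out only in edgeR with the main filter, where neither gene passed, as with all libraries. Ephb2 ranged from -0.63 to -0.28 with a library left out. Directions turned 8 times among 170 member values. By library size only, Apoa1 went to 0.0363 and Apob to 0.000328. With the acute phase covariate Apoc1 went to -0.0344. With a library left out Apoa1 ran from -0.17 to 0.10, with 0.10 without WT replicate 1 and 0.05 without KO replicate 2. Apoc3 ran from -0.29 to 0.0426, the latter without WT replicate 1, and Apoc1 from -0.0872 (without KO replicate 1) and -0.07 (without WT replicate 3) to 0.16. The cause was not tested.

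With the replicate number as a block, 0 members passed, the members' median was -0.15 and Apoa4 had a log2 fold change of -0.62 (edgeR adjusted p = 0.964). The block moved the genes at an unadjusted p under 0.05 from 886 to 537. Same-numbered libraries did not deviate together (r = -0.03, -0.44 and -0.31 over genes; 0 of 6 libraries correlated best with their own number). With 3 libraries per genotype, these values cannot decide whether same-numbered libraries share more than a number. Counts per library were lowest for Apoc2 and Tm6sf2, at 70 to 97 and 334 to 638.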
